A study of Mus musculus with 30 samples.

Results

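The embryonic globin genes (Hba-x, Hbb-y, Hbb-bh1) and 3 further erythroid genes, Alas2, Klf1 and Epor, were followed across 30 dishes of cultured mouse telencephalon. The 6 genes were found by the gene symbol that the array's annotation gives to each probe set, a group of short probes against the same transcript. They have 10 probe sets among the 22690 on the array: 1 for Hba-x, 3 for Hbb-y, 3 for Hbb-bh1 and 1 each for Alas2, Klf1 and Epor. The genes were chosen by their lower signal after 48 h of BDNF, so values for 48 h against the earlier dishes are given as a description with no test. The genotype comparisons, the 24 h response and the dish-to-dish variation were not part of that choice and were tested.

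Cells came from telencephalon, the embryonic forebrain, dissected at embryonic day 12.5 from litters of Xbp1 +/- parents. Xbp1 encodes a factor that switches on genes of the endoplasmic reticulum under stress. The knockout cells were 1 pool from 6 Xbp1 -/- embryos and the wild-type cells 1 pool from 4 Xbp1 +/+ embryos, each split over 15 dishes at low density in serum-free Neurobasal medium with glutamine and B27 supplement. BDNF, a neurotrophin, was given at 100 ng/ml on day 3 to 10 of the 15 dishes of each genotype. Lysis took place on day 4 for untreated (basal) dishes and those given BDNF for 24 h, and on day 5 for those given it for 48 h, which gives 6 groups of 5 dishes with 1 array per dish. No untreated dish was lysed on day 5, so 48 h of BDNF and the extra day in culture cannot be told apart. All dishes of a genotype share a pool, so a p-value measures the spread between dishes and not between embryos.

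Haemoglobin is built from alpha-like and beta-like globin chains with haem. The mouse alpha cluster on chromosome 11 holds Hba-x, the embryonic zeta chain, and the beta cluster on chromosome 7 holds Hbb-y and Hbb-bh1, the embryonic epsilon and beta-h1 chains. These embryonic genes are made by primitive red cells, which arise in the yolk sac, keep their nucleus in the circulation for several days and are replaced by fetal liver red cells that make adult globins. Klf1 (chromosome 8) is the factor that binds CACCC boxes of erythroid promoters, Epor (chromosome 9) is the receptor for erythropoietin, and Alas2 (chromosome X) is the erythroid enzyme of the first step of haem synthesis. Primitive red cells are the main source of the embryonic globin transcripts in the embryo, and dissected forebrain carries blood in its vessels and meninges. In bulk RNA, fewer cells of a type and less RNA per cell cannot be told apart.

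The stretches of 120 bases before the start sites of Hba-x and Hbb-y are shown because these genes of different clusters moved together in the dishes. They are RefSeq sequences on the mouse assembly GRCm38.p6, read 5′ to 3′ on the strand of the gene. Capitals mark 4 motifs, searched for on both strands. The GATA motif was spelled GATAA. The CACCC box and the CCAAT box were searched by the letters of their names. The TATA-like box was spelled ATAAA. Hba-x lies at chr11:32276480-32276599 on the plus strand and Hbb-y at chr7:103853208-103853327 on the minus strand.
Hba-x: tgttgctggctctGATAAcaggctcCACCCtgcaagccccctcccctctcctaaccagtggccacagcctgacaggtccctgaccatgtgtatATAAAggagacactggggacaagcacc
Hbb-y: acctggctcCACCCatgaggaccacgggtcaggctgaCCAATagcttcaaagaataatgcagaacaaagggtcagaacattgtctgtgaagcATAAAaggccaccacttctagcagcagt

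Both windows held a CACCC box and a TATA-like box, the latter starting 27 bases before the start in Hba-x and 28 in Hbb-y. Hba-x also held a GATA motif and Hbb-y a CCAAT box. The same windows of Klf1, Epor and Alas2 held a GATA motif on the opposite strand, where that of Alas2 overlapped an ATAAA match. Alas2 also had 3 CACCC boxes on the opposite strand, and Klf1 had a CACCC and a CCAAT box. Such short matches are common: among 32851 windows of this length, 10.5% held the GATA motif, 31.7% the CACCC box, 21.3% the CCAAT box and 20.2% the TATA-like box. Hbb-bh1 has no entry in the table used and is named only.

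Signals are given as multiples of the median of the same array. Values under 0.1 were raised to that floor for tests, and differences are on the log2 scale ± SE from limma with n = 5 dishes per group. Array medians before scaling ranged from 81.9 to 138 intensity units, and 14.1% to 19.1% of probe sets lay under the floor. The ratio of 3′ to 5′ Gapdh control probe sets, which depends on RNA integrity, was 2.40 to 2.62 in wild-type and 2.17 to 2.68 in knockout dishes at 48 h, against 2.72 to 2.94 and 2.57 to 2.84 in basal dishes. At 48 h, replicates 3 to 5 of both genotypes had 17.3% to 19.1% of probe sets under the floor and replicates 1 and 2 had 15.3% to 16.6%, so values at 48 h are also given for replicates 1 and 2 alone. Before scaling, array medians at 48 h were higher than in basal dishes by 0.31 for wild type and 0.25 for the knockout (log2), and all differences are relative to that shift. The brightest Xbp1 probe set (1437223_s_at) did not show a loss of signal in the knockout, at 20.6 to 22.2 in wild-type and 23.1 to 26.0 in knockout basal dishes, and 1420011_s_at was higher in the knockout by 1.09 ± 0.10 (adjusted p = 8.5e-09). Where these probes lie relative to the deleted part was not examined, so they do not check the genotype.

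Hbb-y gave signals among the highest on the arrays. Its probe set 1436717_x_at lay between the 93.5th and the 99.4th percentile of the array in all 30 dishes. In wild-type basal dishes it read 82.2, 80.2, 89.7, 49.6 and 57.8 times the array median. After 24 h of BDNF it read 80.6, 68.6, 82.7, 57.0 and 69.9, and after 48 h 33.9, 34.0, 46.8, 25.5 and 35.0. The 48 h dishes all lay below the basal and the 24 h dishes, which overlapped each other. In the knockout the basal dishes read 79.7, 82.9, 65.1, 47.0 and 48.9, the 24 h dishes 70.9, 79.5, 81.4, 62.1 and 71.8, and the 48 h dishes 23.9, 19.9, 50.8, 32.6 and 39.6. The knockout 48 h dishes all lay below the 24 h dishes, and 1 of them, at 50.8, lay within the basal range. Probe set 1436823_x_at gave almost the same values, with a correlation of 0.99 with 1436717_x_at across dishes after group means were removed, so these probe sets are not independent readings.

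The dimmer Hbb-y probe set 1450621_a_at showed the same order with a larger change. Its group means in wild type were 5.85 ± 2.26 in basal dishes, 5.52 ± 1.13 at 24 h and 2.07 ± 0.55 at 48 h (SD, n = 5). In the knockout they were 5.55 ± 1.86, 6.87 ± 1.77 and 2.42 ± 0.55. At 48 h no dish exceeded 3.29 and at the earlier times none was below 3.36, so the 48 h dishes of both genotypes lay apart from all 20 others. The difference between 48 h and basal dishes was -1.46 ± 0.26 in wild type by this probe set and -1.03 ± 0.22 by 1436717_x_at.

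Hba-x, the alpha-like embryonic chain, read close to the array median. Wild-type basal dishes read 1.13, 1.07, 1.36, 0.561 and 0.693, the 24 h dishes 0.951, 0.728, 1.18, 0.662 and 0.829, and the 48 h dishes 0.551, 0.649, 0.440, 0.337 and 0.390. The 48 h values lay below all 24 h values, and the highest of them overlapped the lowest basal value. Knockout basal dishes read 1.37, 1.45, 0.974, 0.610 and 0.864, the 24 h dishes 1.56, 1.86, 1.73, 1.03 and 1.18, and the 48 h dishes 0.450, 0.523, 0.492, 0.499 and 0.313. In the knockout the 48 h dishes were below all others, and the difference from 24 h, -1.68 ± 0.26, was a 3.20-fold lower signal.

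Hbb-bh1 was read best by probe set 1437810_a_at. Its wild-type basal dishes read 1.13, 0.796, 1.16, 0.523 and 0.653, the 24 h dishes 0.731, 0.872, 0.812, 0.581 and 0.708, and the 48 h dishes 0.454, 0.492, 0.442, 0.415 and 0.473. The wild-type 48 h dishes were below all others and close together. Knockout basal dishes read 1.40, 1.70, 1.18, 0.811 and 1.04, the 24 h dishes 1.57, 1.99, 2.00, 1.38 and 1.53, and the 48 h dishes 0.649, 0.389, 1.35, 0.639 and 1.02. The knockout 48 h dishes overlapped the basal but not the 24 h dishes. A second probe set, 1437990_x_at, ranged from 0.246 to 2.27. The third, 1450736_a_at, was under the floor in 20 of 30 dishes.

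**Figure D1:**
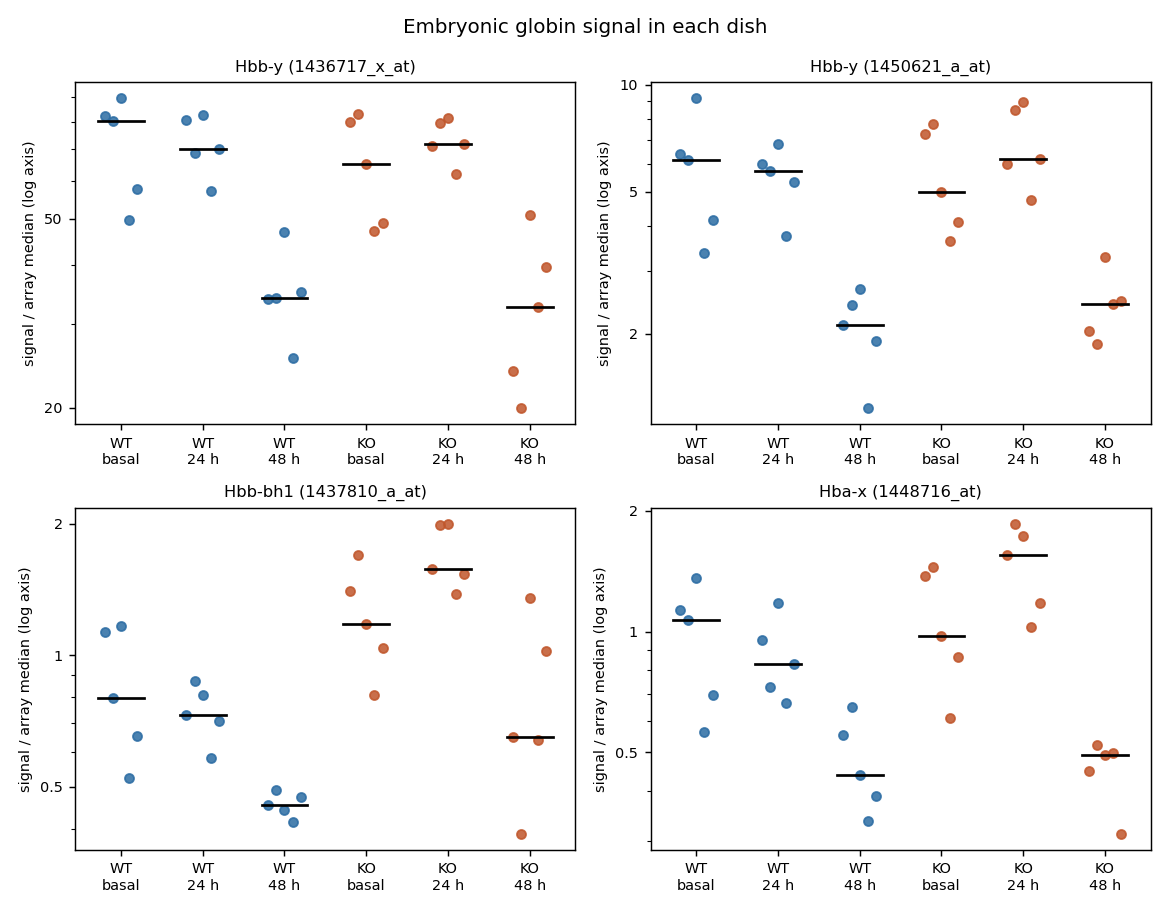
Signal of 4 embryonic globin probe sets in each of 30 dishes, as a multiple of the array median on a log axis, by genotype (WT, wild type, blue; KO, Xbp1 knockout, orange) and time with BDNF; black lines are medians of 5 dishes. The 48 h median is the lowest of its genotype in every panel, and the knockout dishes of Hbb-bh1 at 24 h, between 1.38 and 2.00, lie above all wild-type dishes of that time.

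All 10 probe sets were lower at 48 h than in basal dishes of both genotypes. Of all probe sets, 54.7% were lower in wild type and 47.6% in the knockout. Alas2 was under the floor in 4 of 5 basal dishes and in all 5 at 48 h in each genotype. Hbb-bh1 1450736_a_at in the knockout, at -0.10 ± 0.45, was under it in 4 of 5 dishes of both times. These directions thus rest on single readings. The median difference of the 10 was -0.94 in wild type, and it was -0.67 for knockout dishes. The median over all 22626 probe sets tested was 0.00 in the knockout and within 0.01 of 0 in wild type. In wild type the 5 dishes per group did not overlap for 5 of the 10, where 5.02% of all probe sets were lower without overlap. In the knockout this held for 2 of the 10, and for 3.85% of all probe sets. Against 24 h, 51.1% of all probe sets were lower in wild type and 47.2% in the knockout. Of the 10 members' probe sets, 9 were lower in wild type (median -0.82), the exception being Alas2, and 10 in knockout dishes (median -1.22). Of these, 6 did not overlap in either genotype, against 2.71% and 1.55% of all probe sets. These counts follow from how the genes were chosen. With 48 h replicates 1 and 2 alone the medians against basal were -0.74 for wild type and -1.03 for the knockout, and without rescaling they were -0.63 and -0.42. The Gapdh ratio moved with the 48 h groups, and with it as a covariate the globin differences at 48 h were larger in both genotypes. That of Hbb-y 1436717_x_at, 48 h against basal, went from -1.03 to -1.40 in wild type and from -0.996 to -1.34 in knockout dishes.

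At 24 h of BDNF, with all dishes lysed on the same day, no fall of the globins was detected. In wild type none of the 10 probe sets passed limma with Benjamini-Hochberg adjustment over all probe sets (threshold 0.05), nor did any have an unadjusted p under it, while 6.78% of all probe sets passed. The wild-type differences were 0.02 ± 0.22 for Hbb-y (1436717_x_at, 95% interval -0.43 to 0.45), -0.10 ± 0.26 for Hba-x (-0.63 to 0.43) and -0.15 ± 0.26 for Hbb-bh1 (1437810_a_at, -0.68 to 0.38). In the knockout all 3 were above 0, at 0.21 ± 0.22, 0.51 ± 0.26 and 0.50 ± 0.26, with adjusted p of 0.721, 0.312 and 0.331. The 1 knockout call of 10, against 4.75% of all probe sets in either direction, was the dim Hbb-bh1 probe set 1450736_a_at, higher by 1.62 ± 0.45 (adjusted p = 0.0334). Its basal dishes were under the floor in 4 of 5 cases, its size therefore depends on the floor, and the call was lost with a floor of 0.02 (adjusted p = 0.138) and without 8 of the 10 dishes in turn.

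Hbb-bh1 was higher in the knockout than in wild type at 24 h. By 1437810_a_at the difference was 1.19 ± 0.26, a 2.28-fold higher signal (limma, adjusted p = 0.00186), and all 5 knockout dishes lay above all 5 wild-type dishes, as did 3.9% of all probe sets. By 1437990_x_at it was 1.19 ± 0.32 (adjusted p = 0.0139), again with no overlap: 0.470 to 0.854 in wild type and 1.19 to 2.27 in the knockout. The dim probe set 1450736_a_at was also called, at 1.67 ± 0.45 (adjusted p = 0.0123). It lay under the floor in 4 of 5 wild-type dishes and in 1 knockout dish, and lost its call with a floor of 0.02 (adjusted p = 0.112) and in a fit of only the arrays compared (adjusted p = 0.0777). These were the 3 calls among the 10 probe sets, all of 1 gene. Of all probe sets, 12.9% passed in either direction, and 4.89% of all passed and were higher in the knockout.

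The other globins did not pass at 24 h. Hba-x was higher in the knockout by 0.75 ± 0.26, with an adjusted p of 0.0538 and a 95% interval of 0.22 to 1.28. Its call rested on the setting, with an adjusted p of 0.0454 after quantile normalization, 0.047 with values as deposited, 0.0449 with a floor of 0.02, 0.0271 with a pseudocount of 0.25 and 0.0185 over the brighter 60% of genes. It also passed without wild-type 24 h replicate 3 or knockout 24 h replicate 4 (adjusted p = 0.0333 for the latter). Hbb-y differed by 0.03 ± 0.22 by 1436717_x_at (-0.42 to 0.48) and by 0.30 ± 0.26 by 1450621_a_at (-0.24 to 0.85). A probe set as bright as 1436717_x_at can lie where the array responds less than in proportion, and this was not tested.

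In basal dishes no member passed (limma; 1 of 10 at an unadjusted p under 0.05), while 13.6% of all probe sets did. Hbb-bh1 was higher in the knockout by 0.55 ± 0.26 by 1437810_a_at (adjusted p = 0.182) and by 0.54 ± 0.32 by 1437990_x_at (adjusted p = 0.324), with overlapping dishes. At 48 h no member passed (limma; 3 of 10 at an unadjusted p under 0.05), while 11.6% of all probe sets did, and the same Hbb-bh1 probe sets differed by 0.70 ± 0.26 (adjusted p = 0.079) and 0.77 ± 0.32 (adjusted p = 0.144). The count depends on single dishes. Without knockout 48 h replicate 2, the lowest at 0.389, Hbb-bh1 passed by 1437810_a_at, at 0.936 (adjusted p = 0.00969). Without knockout 48 h replicate 4, Epor passed, at 0.713 (adjusted p = 0.0343), against 0.50 ± 0.23 over all dishes (adjusted p = 0.202). With 48 h replicates 1 and 2 alone the difference of Hbb-bh1 by 1437810_a_at was 0.089. The 3 genotype differences use separate dishes of the same pools, so a difference between the pools would recur in each. Hbb-bh1 by these probe sets was above 0 in each. The dim 1450736_a_at was -0.45 ± 0.45 in basal dishes and 0.09 ± 0.45 at 48 h.

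**Figure D2:**
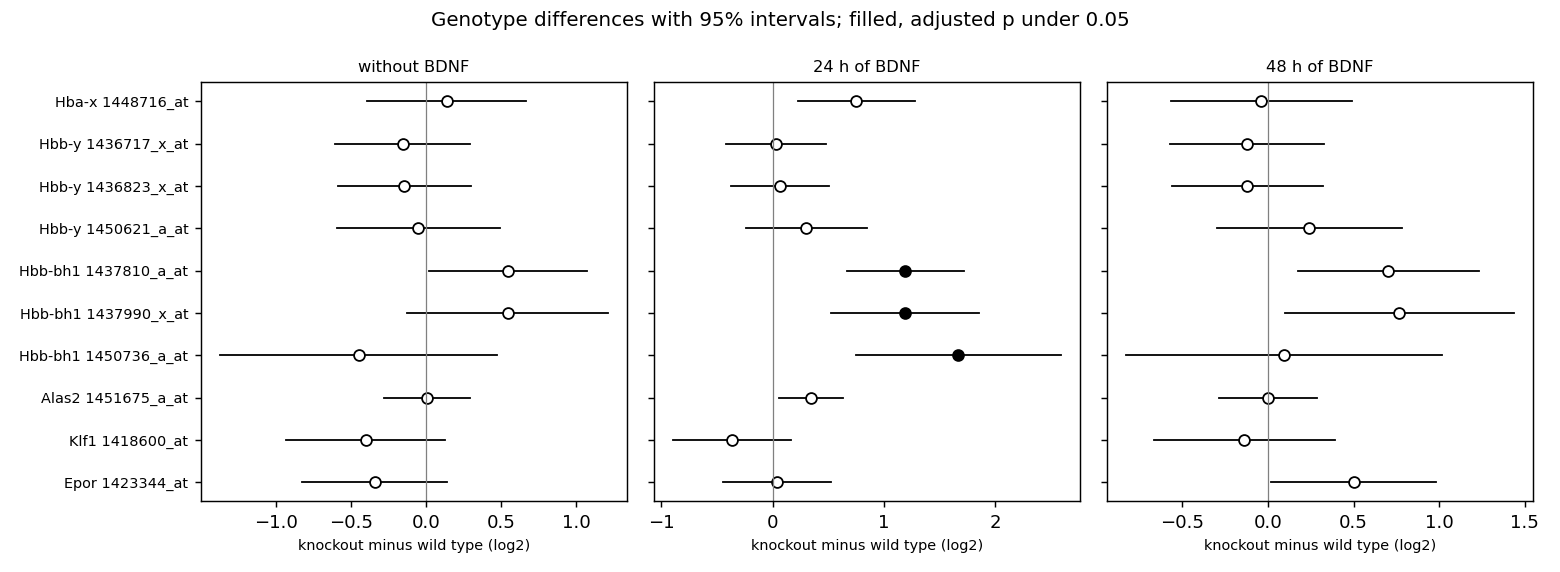
Difference between knockout and wild type (log2, x axis) for the 10 probe sets (y axis) without BDNF and after 24 h and 48 h of BDNF, with 95% intervals from limma; filled points have an adjusted p under 0.05. The 3 filled points are those of Hbb-bh1 at 24 h, and the scales of the panels differ.

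The genotypes also differed in other cell types. The marker lists hold the brightest probe set of each gene, while the shares beside them cover all probe sets. In a fit of the brightest probe sets of the brighter 60% of genes, 27.8% passed in basal dishes and 26.2% at 24 h. Of 14 pericyte and meningeal markers, 10 were higher and 1 lower in the knockout in basal dishes and again at 24 h (limma), where 13.6% and 12.9% of all probe sets passed in either direction. The lower one was Rgs5, a pericyte gene, by -1.13 and -1.03. The markers' summed signal was 161 to 179 in knockout and 84.9 to 92.9 in wild-type dishes at 24 h. Of 17 macrophage and microglia markers, 3 were higher and 1 lower in the knockout at 24 h, with summed signals of 23.7 to 28.6 and 18.6 to 28.9. Of 16 neuron markers, 1 was higher and 5 were lower. The part of these differences in the Hbb-bh1 result was not tested.

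The genotype difference in response to BDNF was itself tested. None of the 10 probe sets passed for the response at 24 h (limma; 1 of 10 at an unadjusted p under 0.05, and 0.0309% of all probe sets passed), for the response at 48 h (1 of 10 unadjusted, 0.053% of all) or for the change from 24 h to 48 h (2 of 10 unadjusted, 0% of all). For Hbb-bh1 (1437810_a_at) the 24 h response was higher in the knockout by 0.65 ± 0.36, with an interval of -0.10 to 1.39. For Hba-x the step from 24 h to 48 h was -0.79 ± 0.36 relative to wild type (adjusted p = 0.877). The Hbb-bh1 difference at 24 h is thus not shown to differ from that in basal dishes.

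The ratio of Hbb-bh1 to another embryonic globin of the same dish was compared next, since a factor that scales both alike leaves it unchanged. It was chosen after Hbb-bh1 had been seen to be higher in these dishes, so the ratios are a description with no test. It used 1437810_a_at over Hbb-y (1450621_a_at) and over Hba-x. In basal dishes log2(Hbb-bh1/Hbb-y) was -2.76 ± 0.20 for wild-type and -2.16 ± 0.14 for knockout dishes (SD, n = 5), a difference of 0.60 ± 0.11 (SE), with no overlap. At 24 h the values were -2.884 ± 0.175 and -1.997 ± 0.145, a difference of 0.89 ± 0.10 with no overlap. At 48 h the groups overlapped, at -2.14 ± 0.38 and -1.68 ± 0.43.

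Relative to Hba-x, Hbb-bh1 was higher in knockout basal dishes by 0.41 ± 0.10 (SE) with no overlap. At 24 h the difference was 0.44 ± 0.15 and at 48 h 0.74 ± 0.41, both with overlap. The dimmer Hbb-bh1 probe set 1437990_x_at gave nearly the same sizes in basal and 24 h dishes but a wider spread. With it the basal differences were 0.59 ± 0.22 over Hbb-y and 0.41 ± 0.20 over Hba-x, both with overlap, and only the 24 h ratio to Hbb-y, at 0.88 ± 0.18, had none. A ratio of probe sets shows unequal change between them and not which chain changed.

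**Figure D3:**
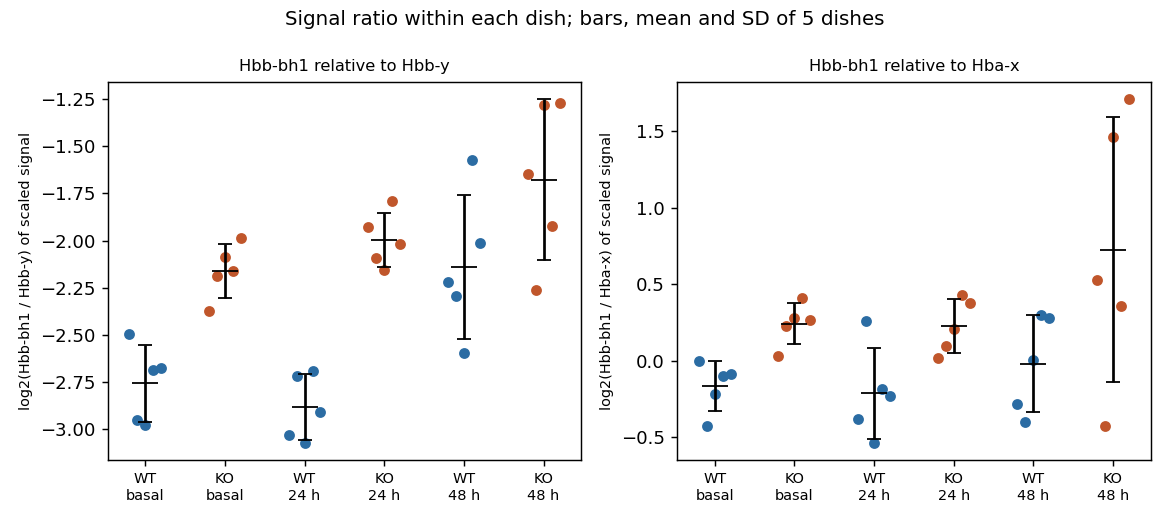
Log2 ratio of Hbb-bh1 signal to Hbb-y (left) and to Hba-x (right) in each dish, wild type in blue and knockout in orange, with the mean and SD of 5 dishes. On the left the knockout dishes lie above the wild-type dishes without overlap in basal and 24 h groups, and at 48 h the groups overlap.

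Of the non-globin members, Epor and Klf1 were above the floor in all 30 dishes, with medians of 0.520 and 0.362, and Alas2 was mostly under it. The median percentile on the array was 39.5 for Epor and 33.5 for Klf1. Without a detection call, a reading above the floor does not show that a gene was detected. Epor read 0.881, 0.593, 0.574, 0.626 and 0.588 in wild-type basal dishes, 0.540, 0.530, 0.510, 0.467 and 0.560 at 24 h, and 0.435, 0.361, 0.244, 0.238 and 0.280 at 48 h. The 3 wild-type groups did not overlap. Between basal and 24 h this held for 1 of the 10 member probe sets, and the share over all probe sets was not computed. At 48 h, 5.02% of all probe sets were lower without overlap against basal and 2.71% against 24 h. The 24 h difference of Epor, -0.31 ± 0.23, did not pass limma (adjusted p = 0.521), and its 48 h difference from basal was -1.09 ± 0.23. In the knockout Epor was 0.523 ± 0.146, 0.544 ± 0.119 and 0.458 ± 0.175 (SD, n = 5), with overlap between all times and a 48 h difference of -0.24 ± 0.23. With the Gapdh ratio as a covariate the 48 h differences of Epor from basal were -0.65 in wild type and 0.17 in knockout dishes, and with 48 h replicates 1 and 2 alone -0.70 and 0.17.

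Klf1 read 0.690, 0.337, 0.465, 0.362 and 0.606 in wild-type basal dishes, with means of 0.413 ± 0.068 at 24 h and 0.314 ± 0.088 at 48 h (SD, n = 5). In the knockout its means were 0.363 ± 0.069, 0.337 ± 0.122 and 0.278 ± 0.061. All groups next to each other in this order overlapped. The 48 h difference from basal was -0.66 ± 0.26 for wild-type and -0.39 ± 0.26 for knockout dishes, and the genotype differences, -0.40, -0.36 and -0.14 at the 3 times, had adjusted p of 0.363 or more. Alas2 was under the floor in 26 of 30 dishes. Its 4 readings above it were 0.133 in a wild-type basal dish, 0.135 in a knockout basal dish, and 0.198 and 0.167 in knockout 24 h dishes. At these signals no level of Alas2 can be given.

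**Figure D4:**
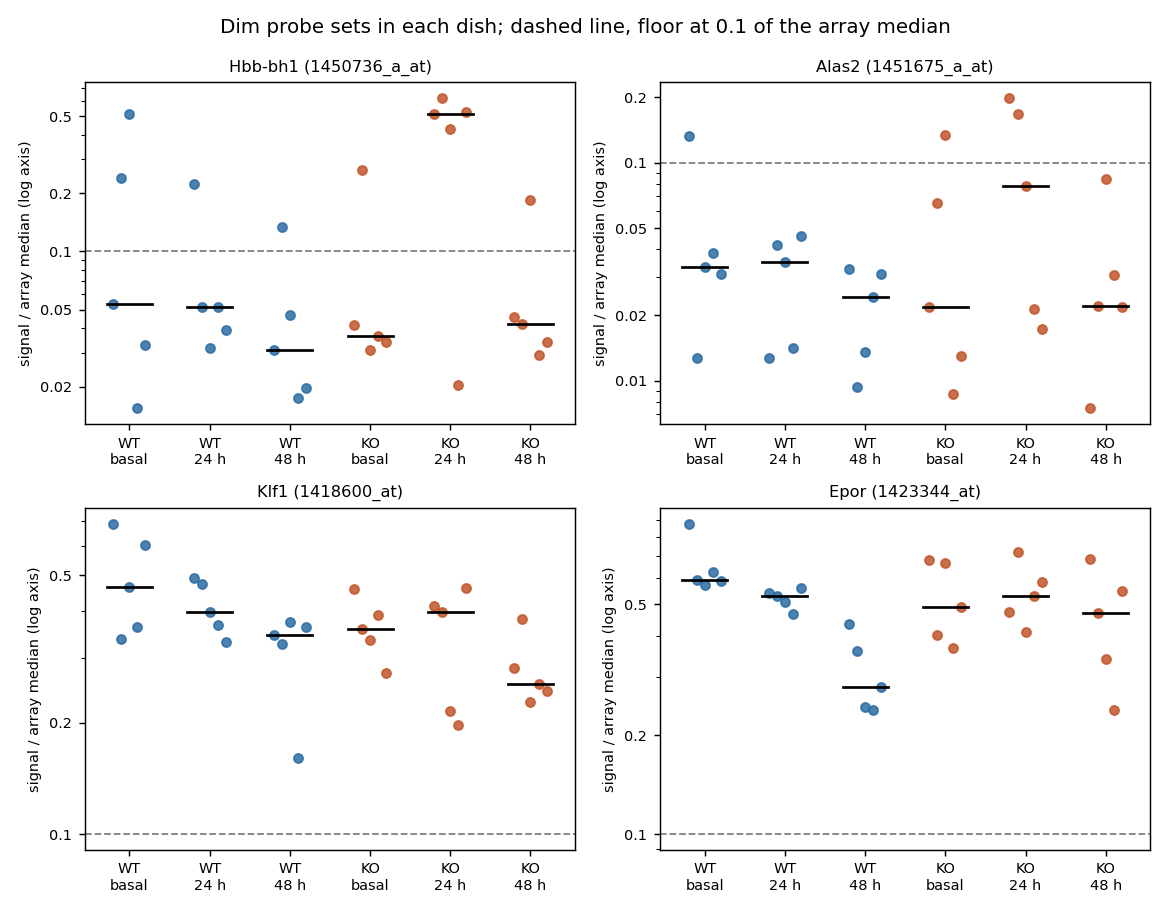
Signal of the 4 dimmest members in each dish, as a multiple of the array median on a log axis; the dashed line is the floor of 0.1 and black lines are medians of 5 dishes. Alas2 and the Hbb-bh1 probe set 1450736_a_at lie mostly under the floor, where values have no order, and Klf1 and Epor lie between 0.160 and 0.881.

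Within a group, dishes with more of one embryonic globin tended to have more of the others. Group means were subtracted, so the group differences that chose the genes play no part. The permutation treats the dishes of a group as exchangeable and as independent of same-numbered dishes in other groups. Replicate 4 had the lowest signal of Hba-x, Hbb-y (1436717_x_at) and Hbb-bh1 (1437810_a_at) in 5 of 6 groups. The 30 dishes may thus not be independent units, and the permutation p-values could be too small. Hbb-y (1436717_x_at) and Hbb-bh1 (1437810_a_at) varied together with Pearson r = 0.87 over 30 dishes (permutation p = 1e-05, the smallest 100000 permutations can give, adjusted 0.0001 over 10 pairs) and Spearman rho = 0.81 (adjusted p = 0.0002). Without the 2 dishes farthest from the median r was 0.81. Both are beta-like globins, and Hbb-y had a median signal of 59.9 against 0.812 for Hbb-bh1. How far the Hbb-bh1 probe set reads Hbb-y transcripts was not tested, so r may not compare separate readings. Hba-x, from the other cluster, varied with Hbb-y at r = 0.55 (permutation, adjusted p = 0.0219; rho = 0.57, adjusted 0.0127) and with Hbb-bh1 at r = 0.50 (adjusted p = 0.0332; rho = 0.60, adjusted 0.00915). Without the 2 farthest dishes these were 0.44 and 0.36. By dimmer probe sets, Hba-x had r = 0.81 with Hbb-y 1450621_a_at and 0.57 with Hbb-bh1 1437990_x_at, with no test. The size of the link thus depends on the probe set. The call of Hba-x with Hbb-y was lost without wild-type basal replicate 4, knockout basal replicate 2 or 4 or knockout 24 h replicate 4 (adjusted p of 0.0505 to 0.0735). That of Hba-x with Hbb-bh1 was lost without any of 11 dishes, namely each wild-type basal dish, wild-type 24 h replicate 4, knockout basal replicates 2, 4 and 5 and knockout 24 h replicates 2 and 4 (adjusted p of 0.0513 to 0.123).

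Within single groups the values are a description over 5 dishes each, and the difference between groups was not tested. Hba-x followed Hbb-y at r = 0.997 in basal dishes of wild type and 0.948 in those of the knockout, 0.92 and 0.89 at 24 h, and 0.31 and -0.34 at 48 h. Hba-x followed Hbb-bh1 at 0.95 and 0.98 in basal dishes, 0.46 and 0.92 at 24 h, and 0.73 and -0.44 at 48 h. Hbb-y followed Hbb-bh1 at 0.94 in basal dishes of both genotypes, 0.66 and 0.96 at 24 h, and 0.34 and 0.95 at 48 h. At 48 h the highest of the 3 pairs was Hba-x with Hbb-bh1 in wild type and Hbb-y with Hbb-bh1 in the knockout. The Hba-x dishes of the knockout at 48 h spanned only 0.313 to 0.523. No pair of Klf1 or Epor with a globin passed: these 6 had r from -0.05 to 0.28 and adjusted p of 0.35 or more, and Klf1 with Epor had r = 0.34 (adjusted p = 0.191).

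**Figure D5:**
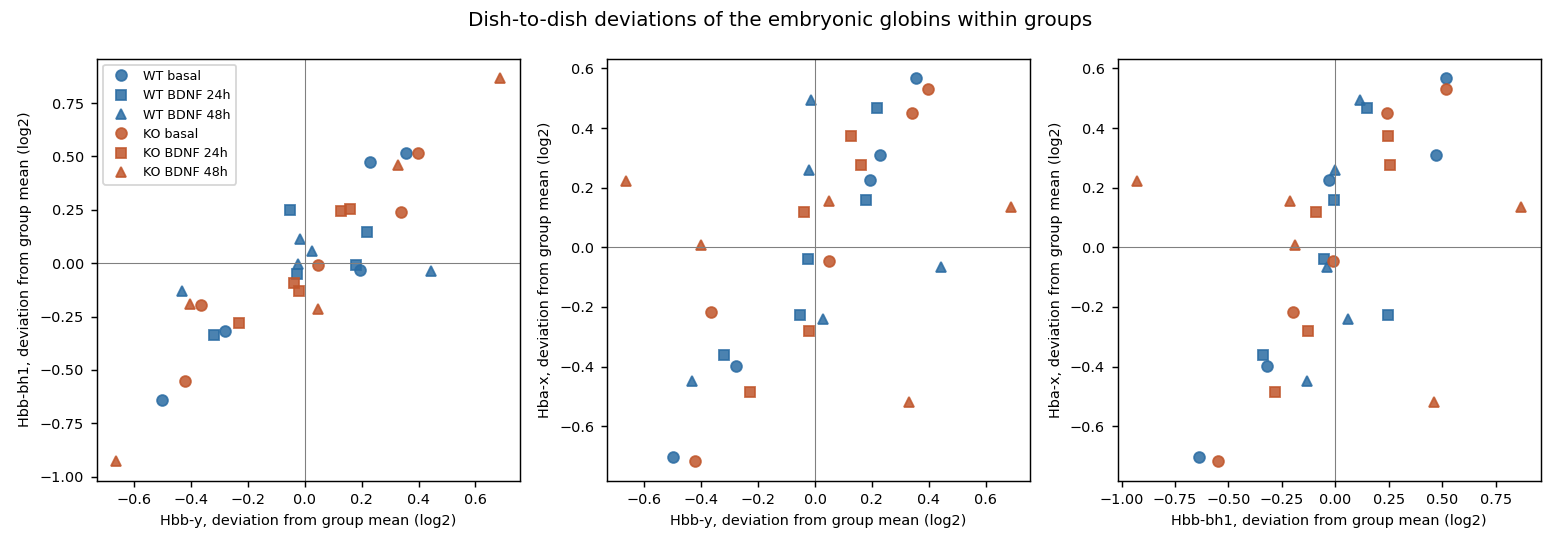
Deviation of each dish from its group mean (log2) for the 3 pairs of embryonic globins; colour gives the genotype and symbol the time. The points rise together for Hbb-y and Hbb-bh1 (r = 0.87), and for Hba-x the knockout 48 h dishes (orange triangles) lie off the trend.

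The mean of the 3 globins in a dish was set against other measures with group means removed, as a description over 30 dishes that share a scaling. It had r = -0.31 with the Gapdh ratio, 0.30 with the array median before scaling, -0.10 with the summed markers of macrophages, 0.21 with those of endothelium, -0.40 with those of pericytes and meninges and 0.03 with those of neurons. The highest values, 0.86 to 0.92, were with 4 probe sets that list several adult globin symbols. These are 3 probe sets of adult alpha-globin and 1 of adult beta-globin genes, looked at after the values were seen. Globins are alike in sequence, and how far an adult globin probe set reads embryonic transcripts was not tested.

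The adult globin probe sets were well above the floor. Adult beta-globin (1417184_s_at) was 6.49 ± 2.30 in wild-type basal dishes, 5.91 ± 1.11 at 24 h and 2.39 ± 0.34 at 48 h, and 4.27 ± 1.49, 5.31 ± 1.61 and 1.70 ± 0.53 in the knockout (SD, n = 5). Adult alpha-globin (1452757_s_at) was 8.89 ± 3.45, 8.22 ± 1.17 and 3.33 ± 0.67 in wild-type dishes. Knockout dishes read 7.90 ± 2.21, 11.5 ± 2.76 and 3.46 ± 1.55. All 4 had lower means at 48 h than in basal dishes, with differences of -1.26 to -1.61 in wild type and -1.09 to -1.45 in knockout dishes. None passed between genotypes (limma, adjusted p of 0.138 or more). Adult beta-globin was -0.60 ± 0.26, -0.20 ± 0.26 and -0.53 ± 0.26 in the knockout at the 3 times, opposite in sign to Hbb-bh1. The 3 adult alpha-globin probe sets were -0.23 to -0.12 in basal dishes and -0.06 to 0.02 at 48 h. At 24 h they were 0.37 to 0.52, the same sign as Hbb-bh1. The single-gene probe sets of Hba-a1, Hba-a2 and Hbb-b2 were dim, with medians of 0.037, 0.258 and 0.124.

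Other red cell genes were measured unevenly. Of 16 membrane and skeleton genes, 5 were under the floor in over 15 of the 30 dishes, 2 in fewer and 9 in none. The 5 included Slc4a1 (the band 3 anion exchanger, 23 dishes), Epb42 (26 dishes) and Rhag (22 dishes). Of 8 red cell enzymes, Car1 was under the floor in 19 dishes, 2 were under it in fewer and 5 in none. Of 15 erythroid transcription factors 11 were never under the floor, among them Gata1, the main erythroid GATA factor, at 0.135 to 0.617.

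Among 15 erythroid transcription factors, 2 were higher and 3 lower in knockout basal dishes, and 2 and 3 at 24 h and 2 and 2 at 48 h (limma), where 13.6%, 12.9% and 11.6% of all probe sets passed in either direction. Tal1 was higher by 1.95 ± 0.11, 2.32 ± 0.11 and 2.08 ± 0.11 at the 3 times (adjusted p = 4.89e-13, 1.33e-14 and 1.12e-13), and Gata2 by 0.87 ± 0.16, 1.09 ± 0.16 and 1.05 ± 0.16 (adjusted p = 0.000351, 2.17e-05 and 3.42e-05). Both act in blood stem cells and erythroid precursors and also in neurons of the embryonic brain. Bcl11a and Sox6, which in red cells silence Hbb-y and Hbb-bh1 and which neurons also use, were lower: Bcl11a by -0.78, -0.84 and -0.82 and Sox6 by -0.57, -0.67 and -0.63, with no overlap at any time (adjusted p of 2.77e-05 or less). Whether they bear on Hbb-bh1 was not tested.

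At 48 h against basal, 3 of these 15 factors fell in each genotype and none rose, where 20.7% of all probe sets passed in wild type and 14% in the knockout. Gata2 fell by 0.80 in wild type and by 0.62 in the knockout (limma, adjusted p = 0.000897 and 0.00997), and Bcl11a by 0.21 and by 0.25 (adjusted p = 0.000307 and 7.24e-05). Tal1 fell in wild type by 0.30 (adjusted p = 0.0443), and Sox6 in the knockout by 0.30 (adjusted p = 0.0231). With 48 h replicates 1 and 2 alone 1 factor fell in wild type (Bcl11a) and 2 in the knockout (Bcl11a and Sox6). Fitted with the Gapdh ratio, 2 fell in each, Gata2 and Bcl11a in wild type and Bcl11a and Sox6 in the knockout. The median of the list was -0.28 in wild type and -0.25 in knockout dishes, against -0.02 and 0.00 over all genes.

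Haem synthesis is the pathway that Alas2 opens in red cells. Of 7 other genes of it that were measured, none passed for 48 h against basal in either genotype (limma), with medians of -0.00 in both. Of all probe sets, 20.7% passed in wild type and 14% in the knockout. All 7 were above the floor in every dish, and which cells their signal came from was not tested. Between genotypes Alad was lower in knockout basal dishes by -0.29 ± 0.07 (adjusted p = 0.00501) and Alas1, the housekeeping form of the enzyme, at 24 h by -0.27 ± 0.09 (adjusted p = 0.0424).

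Of 16 membrane and skeleton genes, 1 rose and 2 fell in wild type at 48 h against basal, and 1 rose in the knockout. Of all probe sets, 20.7% passed in wild type and 14% in the knockout. The water channel Aqp1 fell by 0.80 and glycophorin C (Gypc) by 0.35 in wild type (limma, adjusted p = 0.000714 and 0.0291), and dematin (Dmtn) rose by 0.38 and by 0.35 in wild type and knockout (adjusted p = 0.00119 and 0.0035). Against 24 h, Ermap fell by 1.29, Aqp1 by 0.87 and the beta-spectrin gene Sptb by 0.82 in wild type (adjusted p = 0.031, 0.00224 and 0.00902), where 7.48% of all probe sets passed. With 48 h replicates 1 and 2 alone none of the 16 passed for 48 h against basal or against 24 h. Fitted with the Gapdh ratio, the calls against basal were the same, and against 24 h only Gypc fell. Between genotypes 1 was higher and 1 lower in knockout basal dishes, 1 higher at 24 h and 2 higher and 1 lower at 48 h. The shares of all probe sets passing, in either direction, were 13.6%, 12.9% and 11.6%. Gypc was higher in the knockout by 0.78, 0.67 and 1.22 at the 3 times (adjusted p of 0.000129 or less), and Aqp1 by 0.88 at 48 h (adjusted p = 0.000252), while Dmtn was lower by -0.26 in basal dishes and -0.29 at 48 h. In 48 h replicates 1 and 2 alone Gypc passed at 48 h and Aqp1 and Dmtn did not.

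Of 13 genes of iron handling, 3 rose and 2 fell in wild type at 48 h, and 2 rose and 2 fell in the knockout, where 20.7% and 14% of all probe sets passed. The mitochondrial iron importer Slc25a37 rose by 0.88 and by 0.61 (limma, adjusted p = 0.00058 and 0.0162) and the transferrin receptor Tfrc by 0.40 and by 0.24 (adjusted p = 0.000354 and 0.0346), whereas the second receptor Tfr2 fell by 0.63 and by 0.54. With 48 h replicates 1 and 2 alone Tfrc rose in wild type and Aco1 fell in the knockout, and no other member passed. Adding the Gapdh ratio to the fit, Slc25a37 and Tfrc rose and Aco1 fell in wild type, only Aco1 fell in the knockout, and Tfr2 passed in neither. Between genotypes 2 were higher and 2 lower at each time, where 13.6%, 12.9% and 11.6% of all probe sets passed. The ferrireductase Steap3 was higher in the knockout by 1.29, 1.29 and 1.70 at the 3 times (adjusted p of 0.0014 or less), with 14 of its 30 dishes under the floor, and the iron exporter Slc40a1 by 0.55, 0.34 and 0.75. The importer Slc25a28 was lower by -0.26, -0.21 and -0.27 and the iron-sensing aconitase Aco1 by -0.25, -0.24 and -0.26 (adjusted p of 0.0355 or less). Between genotypes at 48 h only Slc40a1 passed with 48 h replicates 1 and 2 alone.

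Of 11 genes of erythropoietin and stem cell factor signalling, the pathway of Epor, 3 were lower in the knockout at each time and 1 was higher at 48 h, where 13.6%, 12.9% and 11.6% of all probe sets passed. Those lower were Kitl (-0.54, -0.69 and -0.44), Jak2 (-0.39, -0.30 and -0.26) and Kit (-0.33, -0.38 and -0.52), with adjusted p of 0.0466 or less (limma). The adaptor Gab1 was higher at 48 h by 0.44 ± 0.08 with no overlap (adjusted p = 0.000204). At 48 h against basal 2 fell in wild type, Gab1 by 0.62 and Jak2 by 0.19, where 20.7% of all probe sets passed. None passed in the knockout, where 14% of all probe sets did and where Gab1 fell once the Gapdh ratio was fitted. Of 8 red cell enzymes, 2 rose and 2 fell at 48 h against basal in both genotypes, beside the same shares of all probe sets. Car2 and Bpgm rose, Car2 by 0.88 and by 0.78 (limma, adjusted p = 4.29e-05 and 0.00028). Cat and Prdx2 fell, Cat by 0.28 and by 0.30. With 48 h replicates 1 and 2 alone Car2 rose in both genotypes and no other enzyme passed, while Gab1 and Jak2 fell in wild type. With that ratio fitted Car2 rose and Cat fell in both, and Bpgm and Prdx2 did not pass. Between genotypes Car2 was lower in the knockout by -0.48, -0.49 and -0.58 at the 3 times and Prdx2 by -0.19, -0.18 and -0.13 (adjusted p of 0.0377 or less). None of these signalling genes and enzymes passed between genotypes at 48 h with 48 h replicates 1 and 2 alone.

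The genes most like the globins were ranked by Pearson r with the mean of the 3 globins over 30 dishes, among 7433 genes of sufficient signal. They were Notch3 (0.71), Ift88 (0.70), Pmepa1 (0.70), Cxxc5 (0.70), Crabp2 (0.69), Plxnb2 (0.68), Zbtb12 (0.67) and Tle3 (0.67), where the 99th percentile of all genes was 0.57. After group means were removed, these 8 had r from -0.23 to 0.44. The 5 highest were then Tmem184b (0.66), Sez6l (0.61), Fyco1 (0.60), Pfkp (0.57) and Slc24a3 (0.57), with a 99th percentile of 0.41. Over 30 dishes with group means kept, r was 0.24, 0.48 and 0.21 for the first 3, -0.49 for Pfkp and -0.30 for Slc24a3. These values are a description, since dishes share a day of lysis and a scaling. The globins were also chosen by their lower signal at 48 h, so r over 30 dishes favours genes that are lower at 48 h. All 8 genes had lower means at 48 h than in basal dishes of both genotypes.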

How the data were processed

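Affymetrix Mouse Genome 430A 2.0 arrays measured RNA of 30 dishes. The values deposited by the authors are intensity on a linear scale from MAS5, per the submitters' processing notes; its version and a detection call are not given in the sources used here. The genome build of the probe sets is not given there either. Each array was divided by its median, a step that the series' design text also names, values under 0.1 were set to 0.1 and log2 was taken. A model with 6 group means was fitted to the 22626 probe sets left after 64 controls with limma 3.58.1 in R 4.3.3 (empirical Bayes with an intensity trend), with Benjamini-Hochberg adjustment over all of them, two-sided and at a threshold of 0.05. Intervals are 95%. The number of arrays limits the precision.

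The members, lists and rules were chosen with earlier results of these data known. Named genes are every member probe set, Xbp1, up to 4 genes per erythroid list and comparison past the threshold with the largest change, and the genes most like the globins (8 over all dishes, 5 within groups); others named were chosen after their values were seen. Gene lists used the brightest single-symbol probe set of each of 12393 genes. Covariation used 100000 permutations within groups in Python 3.11.15 with numpy 2.4.6, and ratios were not tested. Scripts were tested on simulated data. Alternatives were other scalings (quantile, 75th percentile, none), a floor of 0.02, a pseudocount of 0.25, the brighter 60% of genes, only the arrays compared, dish number as a block, no trend, the Gapdh ratio as covariate, 48 h replicates 1 and 2 alone, and each dish left out. Leaving dishes out of the covariation, all alternatives of the ratios and the lists, and removal of the Gapdh ratio from the covariation were added after seeing the data.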

Additional observations from a re-analysis of the deposited data

Results flagged for a closer look

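Within each group of 5 dishes, the highest or lowest dish was set against the others by Dixon's ratio, and 10 of 57 groups had a dish past the 95% limit, where chance gives about 1 in 20. Of these, 6 had all other dishes under the floor, so that a single reading above it stood out: Hbb-bh1 1450736_a_at at 0.223 in wild-type 24 h replicate 1, 0.134 in wild-type 48 h replicate 2, 0.262 in knockout basal replicate 2 and 0.184 in knockout 48 h replicate 3, and Alas2 at 0.133 in wild-type basal replicate 1 and 0.135 in knockout basal replicate 3. The same Hbb-bh1 probe set was low, at 0.0203, in knockout 24 h replicate 4, where the other 4 dishes read 0.430 to 0.622. Hba-x was low in knockout 48 h replicate 5, at 0.313 against 0.450 to 0.523 in the others. Klf1 was low in wild-type 48 h replicate 4, at 0.160 against 0.326 to 0.375. Epor was high in wild-type basal replicate 1, at 0.881 against 0.574 to 0.626.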

How the results depend on the processing

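No value past the test's threshold changed sign. Values that had not passed or had no test did: for Epor in the knockout, 48 h against basal went from -0.24 to 0.17 both when the Gapdh ratio was fitted and with 48 h replicates 1 and 2 alone, and 48 h against 24 h from -0.32 to 0.16 and to 0.09. Apart from single dishes left out, 178 of 187 values of the comparisons kept their side of the threshold or, with no test, moved by less than the spread between dishes. The 1 call of the knockout at 24 h against basal became 0 with values as deposited, a floor of 0.02, the brighter 60% of genes (3 member probe sets left) or only the arrays compared. Knockout against wild type at 48 h had 1 call over the brighter 60% of genes (Hbb-bh1, adjusted p = 0.0272). With dish number as a replicate block it had 2 (Hbb-bh1, adjusted p = 0.0475 and 0.049), and Hba-x passed at 24 h (adjusted p = 0.00413). The labels do not say that a dish number is shared between groups. Deviations of same-numbered dishes had a mean correlation of -0.05 to 0.14 over 15 pairs of groups; at most 4 of 5 dishes were above 0.1, as for knockout against wild type at 24 h and at 48 h, where 2 of 5 correlated best with their own number. By the rule used (all 5 above 0.1) the numbers do not pair the dishes, and these are not taken as calls. The median difference of the knockout, 48 h against 24 h, was -1.68 with 48 h replicates 1 and 2 alone. The 24 h difference of the ratio of Hbb-bh1 to Hbb-y was 0.676 with a pseudocount of 0.25 and 1.16 with 1436717_x_at for Hbb-y. Leaving out each dish in turn gave 3 to 5 calls for knockout against wild type at 24 h (5 without knockout 24 h replicate 4, with Hba-x and Alas2), 0 to 1 at 48 h (Hbb-bh1 without knockout replicate 2, Epor without replicate 4) and 0 to 1 for the knockout at 24 h against basal. It gave r of 0.484 to 0.67 for Hba-x with Hbb-y and 0.42 to 0.663 for Hba-x with Hbb-bh1, and ratio differences of 0.358 to 0.557 (over Hba-x, 24 h), 0.498 to 1.03 (over Hba-x, 48 h) and 0.348 to 0.609 (over Hbb-y, 48 h). The cause of these changes was not tested. Signals mostly under the floor limit Alas2 and Hbb-bh1 1450736_a_at, and 1 pool of cells per genotype limits every genotype comparison.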

Other observations

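The dish number in the sample titles ran with the embryonic globins. Replicate 4 had the lowest signal in 5 of 6 groups for Hba-x, for all 3 Hbb-y probe sets and for Hbb-bh1 (1437810_a_at), and in 2 of 6 groups for Hbb-bh1 1437990_x_at. Replicate 3 had the highest signal of Hbb-y 1436717_x_at in 5 of 6 groups. The labels do not say what a dish number marks, and the pattern was seen in the data and not tested.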
